A study of Mus musculus with 8 samples.

Results

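The comparison asked how the early response of mouse peritoneal macrophages to LECT2 differed between a high dose, 5 µg/ml, and a low dose, 0.5 µg/ml, at 3.5 h. It used 4 of the 8 arrays of the study: 2 at the low dose and 2 at the high dose, all from the early time. The other 4 arrays carried the same doses at 48 h. On every array RNA of LECT2-treated cells was labelled with Cy3 and RNA of cells given no LECT2 with Cy5, without a dye swap. Dye and treatment therefore cannot be told apart, and whether a dye effect was equal at both doses was not tested. The macrophages were washed out of the peritoneum and cultured in low-glucose medium with 20% foetal bovine serum. The early time is 3.5 h in the titles, which is followed here, and 3 h in the labels of the channels. The replicate numbers 1 and 2 mark 2 independent experiments with different mice. Sex, age and strain of the mice, any selection of the cells, and whether the low- and high-dose arrays of a replicate share their control RNA are not given in the sources used here. For each array the LECT2 effect is the log2 ratio of LECT2 over control, and the dose difference is the effect at the high dose minus the effect at the low dose, taken within each replicate number and then averaged over the 2 replicates.

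LECT2, leukocyte cell-derived chemotaxin 2, is a protein secreted mainly by the liver and first described as an attractant of neutrophils. In mouse macrophages the C-type lectin CD209a has been described as a receptor for it, and MET and TIE1 have been described as receptors on other cells. Macrophages that sense a microbial or danger signal switch on NF-kB and MAP kinase targets such as Tnf within the first hours, and then a second set of genes that needs interferon signalling or newly made factors, among them the antiviral genes and the brake cytokine Il10.

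Some limits bear on all values. The deposited column of the low dose, replicate 1, holds the single value 2.31 (log2 LECT2 over control) at 4530 of its 39428 probes, or 11.5%, while no value occurs at more than 3 probes in any other column. This repeated value is no separate measurement of each probe. It touched 683 of the 26148 genes tested (2.61%), and 40.6% of these had a LECT2 signal well above background in that array's own scanner file, against 90.1% of the other genes. The same column followed its own scanner file at r = 0.807 only, whereas the other 3 early columns followed a file at r = 0.990 to 0.996, but a file recorded under another sample. The effects of the 2 low-dose arrays correlated across genes at r = 0.414 and those of the 2 high-dose arrays at r = 0.721; genes are not independent replicates, so these are descriptions. Between 56.4% and 71.7% of the spots other than controls were well above background in the LECT2 channel of the 8 arrays. The lowest share was that of the early high dose, replicate 1, and the highest that of the early low dose, replicate 1. In replicate 2 the early shares were 64.1% at the low dose and 69.9% at the high dose. With 2 arrays a group, standard errors and p-values of the log ratios rest on a spread pooled over all 8 arrays, 48 h included, and moderated across genes. They describe these arrays only.

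No gene passed the test of the dose difference. In limma with Benjamini-Hochberg adjustment 0 of 26148 genes (0%) had an adjusted p under 0.05, the smallest being 0.205, and 2048 genes (7.83%) had an unadjusted p under 0.05, 763 of them higher (2.92%) and 1285 lower (4.91%) at the high dose. Of those 1285, 204 carried the repeated value. The median difference was -0.03 on the log2 scale, and the median 95% interval reached 0.93 to either side, and in 4832 genes (18.5%) the whole interval lay between -1 and 1. For the other genes a difference as large as 1 on the log2 scale lay within the interval or was passed by it. Fitted on the 4 early arrays alone, limma also gave 0 calls, with a smallest adjusted p of 0.749. The within-replicate differences of the 2 experiments correlated across genes at r = 0.119. Leaving out replicate 2 of the low dose gave 436 calls, 15 higher and 421 lower, and 217 of the 421 carried the repeated value, which that fit takes as the low dose alone. All values below are therefore differences with their standard errors (SE) and not calls.

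Against control, each dose did give calls. With 2 arrays each, 1279 genes (4.89%) passed at the low dose, of which 718 rose (2.75%) and 561 fell (2.15%). Of those 718, 62 carried the repeated value (2.61% of all genes tested do). With that value as missing, 689 rose and 589 fell. At the high dose 5724 genes (21.9%) passed, of which 2661 rose (10.2%) and 3063 fell (11.7%; limma, adjusted p under 0.05). With each column centred on its median over probes, which moved the median effect of all genes from 0.00 to -0.14 at the low dose and from -0.03 to -0.21 at the high dose, the split was 528 up and 840 down at the low dose and 1850 up and 4202 down at the high dose. Leaving out replicate 1 of the low dose left 117 calls at that dose, and leaving out replicate 1 or 2 of the high dose left 901 or 2442 at the high dose. When the scanner files were taken as recorded under each sample, neither dose gave a call. The early columns followed those recorded files poorly, at r = 0.807 (low dose) and 0.673 (high dose) in replicate 1. In replicate 2 these were 0.353 and 0.286. By the link to columns, the files recorded for early replicate 2 belong to 48 h columns. Values from recorded files may therefore mix the 2 times, and whether the record or the link is right was not tested. That a gene passed at one dose and not at the other does not show a difference between doses, and the test of that difference passed for no gene.

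The positive end of the dose difference held several secreted signals. Its 12 largest moderated statistics among genes with a symbol included 3 interleukins, Il19, Il10 and Il1f6, and the peptide hormone precursor Edn1. Il19, a cytokine of the IL-10 family, had log2 LECT2 over control of -1.50 and 0.04 on the low-dose arrays and 4.11 and 3.98 on the high-dose arrays. The 2 high values lie close together and far above both low ones. The difference was 4.77 with an SE of 0.50 and a 95% interval from 3.62 to 5.92. Its limma adjusted p of 0.205, the lowest of all genes, is shared with a gene without a symbol. That gene had the lower unadjusted limma p, 9.9e-06 against 1.6e-05 for Il19. A second, dimmer Il19 probe gave a difference of 2.39. The Il19 control signal was well above background on only 1 of the 2 low-dose arrays. In the scanner file that best matched the column of low-dose replicate 1, its LECT2 and control levels were 7.46 and 7.76 (log2).

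Il10, which restrains macrophage activation, read -0.18 and 2.11 at the low dose and 4.69 and 5.12 at the high dose. Its difference was 3.94 with an SE of 0.66, and the high-dose arrays did not overlap the low-dose arrays although the latter disagreed by more than 2 log2 units between experiments. The Il10 control signal was well above background on only 1 of the 2 low-dose arrays. In the scanner files that best matched the columns, the low-dose LECT2 levels of Il10 were 7.51 and 7.70 (log2). Edn1, the precursor of endothelin 1, behaved more evenly, with 2.05 and 2.09 at the low dose and 4.49 and 4.36 at the high dose. Its difference was 2.35 with an SE of 0.36, and Edn1 rose against control at both doses. Il1f6, which encodes interleukin 36 alpha, read 4.75 and 4.55 at the high dose and 2.85 on replicate 2 of the low dose. Its control signal was not well above background on either low-dose array, where the LECT2 signal was at least 1.85-fold above it. Its replicate 1 low-dose value is the repeated 2.31, so the difference of 2.07 (SE 0.35) rests on replicate 2, in which it was 1.71, and is 1.81 with the repeated value taken as missing.

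**Figure D1:**
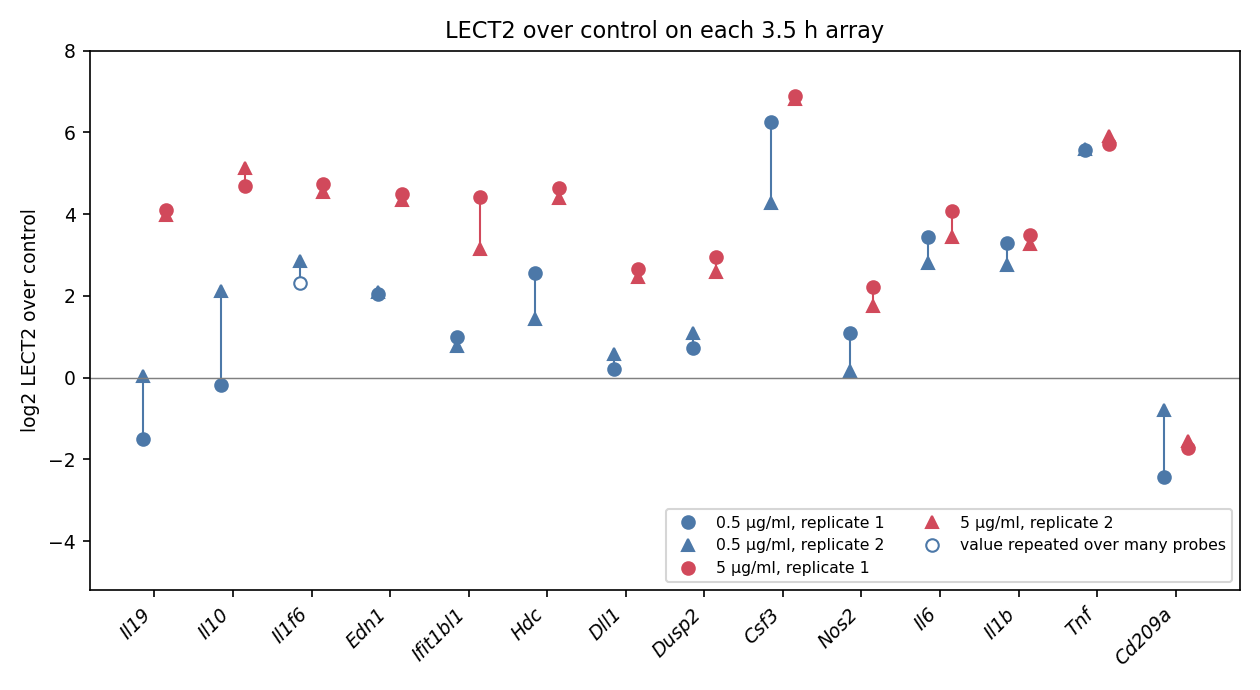
Log2 LECT2 over control (y axis) of 14 genes (x axis) on each of the 4 early arrays, with blue for 0.5 µg/ml, red for 5 µg/ml, circles for replicate 1, triangles for replicate 2 and a line joining the 2 arrays of a dose. For Il19 the low-dose arrays lie at -1.50 and 0.04 and the high-dose arrays at 4.11 and 3.98, while for Tnf all 4 arrays lie between 5.57 and 5.91; the open circle of Il1f6 is the value repeated over many probes.

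The other genes at this end belonged to several classes. Ifit1bl1, a member of the interferon-induced IFIT family, read 1.01 and 0.77 at the low dose and 4.41 and 3.14 at the high dose, a difference of 2.89 (SE 0.45). Hdc, the enzyme that makes histamine, read 2.56 and 1.43 against 4.64 and 4.40, a difference of 2.53 (SE 0.44). Dll1, a ligand of Notch receptors, read 0.22 and 0.58 against 2.66 and 2.46, a difference of 2.16 (SE 0.37). In all 3 genes both high-dose arrays stood above both low-dose arrays. The control signals of Hdc and Dll1 were not well above background on either low-dose array, and for Hdc the LECT2 signal was above it on 1 of those 2. The low-dose LECT2 signal of Dll1 is therefore given only as at least 1.42-fold above control. For Hdc the same figure is 2.02, but it includes an undetected LECT2 signal and is no lower bound. Dusp2, a phosphatase that switches MAP kinases off, read 0.72 and 1.09 against 2.96 and 2.58, a difference of 1.87 (SE 0.36). Rnf125, a ubiquitin ligase that acts on RIG-I, was not well above background in the LECT2 channel of either low-dose array, and its LECT2 signal was at least 2.57-fold higher at the high dose. Bounds of this kind set the mean LECT2 signal of the brighter group against the dimmer group's signal or its detection limit, whichever is higher, in the scanner files linked to the columns. Bounds against control set the mean LECT2 signal of a dose against its control signal or that channel's detection limit in the same way. Tbx3 (1.64, SE 0.31), 4930503E24Rik (1.85, SE 0.35) and Wdr86 (1.46, SE 0.29) completed the 12. All 3 had a LECT2 signal above background on at most 1 array of a dose, and in the linked scanner files after loess their differences were 0.33, 0.34 and 0.40.

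Il19, Il10, Edn1, Il1f6 and Ifit1bl1 had a positive difference under each alternative run. With scanner files as recorded their values lay between 0.00 for Il19 and 0.45 for Edn1, and Hdc, Dll1 and Dusp2 had -0.52, -0.07 and -0.04. With the linked files and loess in place of the deposited values, 8 genes passed the test of the dose difference. Of these 7 were higher at the high dose: Il19 at 3.52, Il10 at 3.36, Il1f6 at 2.70, Edn1 at 2.66, Il23a at 2.44, Il1f9 at 2.29 and Htra4 at 2.23, with limma adjusted p between 0.0092 and 0.0497. The one that was lower has no symbol in the gene table (-2.53). Without passing there, Hdc (2.68) and Dusp2 (1.94) had larger differences than in the deposited values. Ifit1bl1 (2.58), Rnf125 (1.77) and Dll1 (1.19) had smaller ones. In the deposited values Il23a, a subunit of interleukin 23, differed by 1.38 (SE 0.28; control not well above background on either low-dose array), Il1f9, which encodes interleukin 36 gamma, by 2.19 (SE 0.44) and the protease gene Htra4 by 1.57 (SE 0.36). Il23a, Il1f9 and Htra4 are named because that alternative called them.

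The 250 bases before the transcription start are shown as RefSeq's promoters of GRCm38.p6 give them. They are those of Il19, Edn1 and Ifit1bl1, the 3 genes with a symbol ranked highest at the positive end. Tnf, which rose against control at both doses, is also shown. Capitals mark a match to the interferon response element (GAAA, any 2 bases, GAAA), searched on both strands, and each sequence reads 5' to 3' in the direction of the gene.
Il19, chr1:130940116-130940365, minus strand: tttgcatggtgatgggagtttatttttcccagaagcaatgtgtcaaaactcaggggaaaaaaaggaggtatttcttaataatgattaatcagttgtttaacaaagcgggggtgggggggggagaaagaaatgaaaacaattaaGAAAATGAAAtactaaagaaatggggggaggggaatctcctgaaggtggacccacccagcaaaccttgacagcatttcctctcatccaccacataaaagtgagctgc
Edn1, chr13:42301226-42301475, plus strand: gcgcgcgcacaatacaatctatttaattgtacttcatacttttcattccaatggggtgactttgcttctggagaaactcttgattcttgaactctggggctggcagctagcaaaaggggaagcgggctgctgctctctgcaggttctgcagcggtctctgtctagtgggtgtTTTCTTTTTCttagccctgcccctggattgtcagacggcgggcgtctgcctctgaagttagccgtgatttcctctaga
Ifit1bl1, chr19:34601969-34602218, minus strand: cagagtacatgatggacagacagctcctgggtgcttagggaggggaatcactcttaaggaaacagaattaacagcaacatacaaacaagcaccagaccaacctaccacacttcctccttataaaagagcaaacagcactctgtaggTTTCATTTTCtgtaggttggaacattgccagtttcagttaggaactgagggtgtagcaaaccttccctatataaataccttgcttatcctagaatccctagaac
Tnf, chr17:35202008-35202257, minus strand: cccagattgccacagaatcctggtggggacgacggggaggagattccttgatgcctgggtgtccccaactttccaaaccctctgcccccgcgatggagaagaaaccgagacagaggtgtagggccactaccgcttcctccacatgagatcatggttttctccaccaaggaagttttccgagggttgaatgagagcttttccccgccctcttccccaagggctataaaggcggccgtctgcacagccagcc
The matches end 98 bases before the start in Il19, 69 in Edn1 and 95 in Ifit1bl1, and they read on the gene's strand in Il19 and on the other strand in Edn1 and Ifit1bl1. No match to it, to the kB motif (GGG, any 3 bases, TTCC), to the AP-1 motif TGANTCA or to the CRE motif TGACGTCA was found in the Tnf window, which says only that these letters are not in these bases. Of the 12 genes with the largest positive statistics 7 have an entry and 3 of them hold the element, and of the 12 with the largest negative statistics 12 have an entry and 0 hold it. Among 13308 named genes tested with an entry the share was 2.86%, and among all 27025 genes with a RefSeq promoter 3.04%. The shares among tested genes were 4.76% for the kB motif, 5.42% for AP-1 and 2.37% for CRE. A match is a description of letters and not a binding site.

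Cytokine genes ranged from differences near 0, as for Tnf and Il1b, to several log2 units, as for Il17a and Tslp. Of 27 inflammatory cytokine and growth factor genes listed 26 were tested, and both high-dose arrays lay above both low-dose arrays in 16 of them (all genes: 21.1%) and below in 0 (all genes: 19.4%). None passed the test of the difference. The median difference was 1.18, against -0.03 over all genes, with 0.84 in replicate 1 and 1.11 in replicate 2. It was 0.60 without replicate 2 of the low dose and -0.09 with scanner files as recorded. At the low dose 13 of the 26 rose against control (all genes: 2.75%) and at the high dose 21 (all genes: 10.2%), with 0 falling at either dose.

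Tnf, the classical early macrophage cytokine, read 5.57 and 5.60 at the low dose and 5.72 and 5.91 at the high dose. The difference was 0.23 with an SE of 0.51, and its interval from -0.95 to 1.41 does not show that the doses acted alike. Il1b read 3.28 and 2.76 against 3.50 and 3.27, a difference of 0.36 (interval -1.14 to 1.86), and Il6 read 3.45 and 2.81 against 4.09 and 3.44, a difference of 0.63 (interval -0.83 to 2.09). All 3 rose against control at both doses. For Il6 the control channel was itself 1.15 higher on the high-dose arrays, and the LECT2 channel 1.96 higher. Csf3, the granulocyte growth factor, reached 6.89 and 6.82 at the high dose, against 6.26 and 4.27 at the low dose, and the difference of 1.59 (interval -0.03 to 3.22) was mostly that of replicate 2. Il12b, one of the genes to be named in every case, did not pass the filter on dim probes.

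At the other extreme stood cytokines with large positive differences. Il17a, usually a T cell cytokine, read 1.97 and 0.90 at the low dose and 5.53 and 4.65 at the high dose, a difference of 3.66 (SE 0.72). Tslp, an epithelial alarm cytokine, read 0.08 and 1.77 against 3.00 and 3.92, a difference of 2.53 (SE 0.61). In both genes the control signal was not well above background on any early array, so against control the LECT2 signal at the high dose was at least 5.01-fold higher for Il17a and at least 3.43-fold higher for Tslp. The T and NK cell markers gave a median difference of -0.04 over 19 genes tested. Both high-dose arrays lay above both low-dose arrays in 2 and below in 4 (all genes: 21.1% and 19.4%). The part of these markers' cells in the Il17a value was not tested. Inhba, a subunit of activin A, read 4.25 and 1.26 against 5.72 and 4.29, a difference of 2.26 (SE 1.13). In the linked files after loess the differences were 2.31 for Il17a, 1.28 for Tslp and 2.43 for Inhba.

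**Figure D2:**
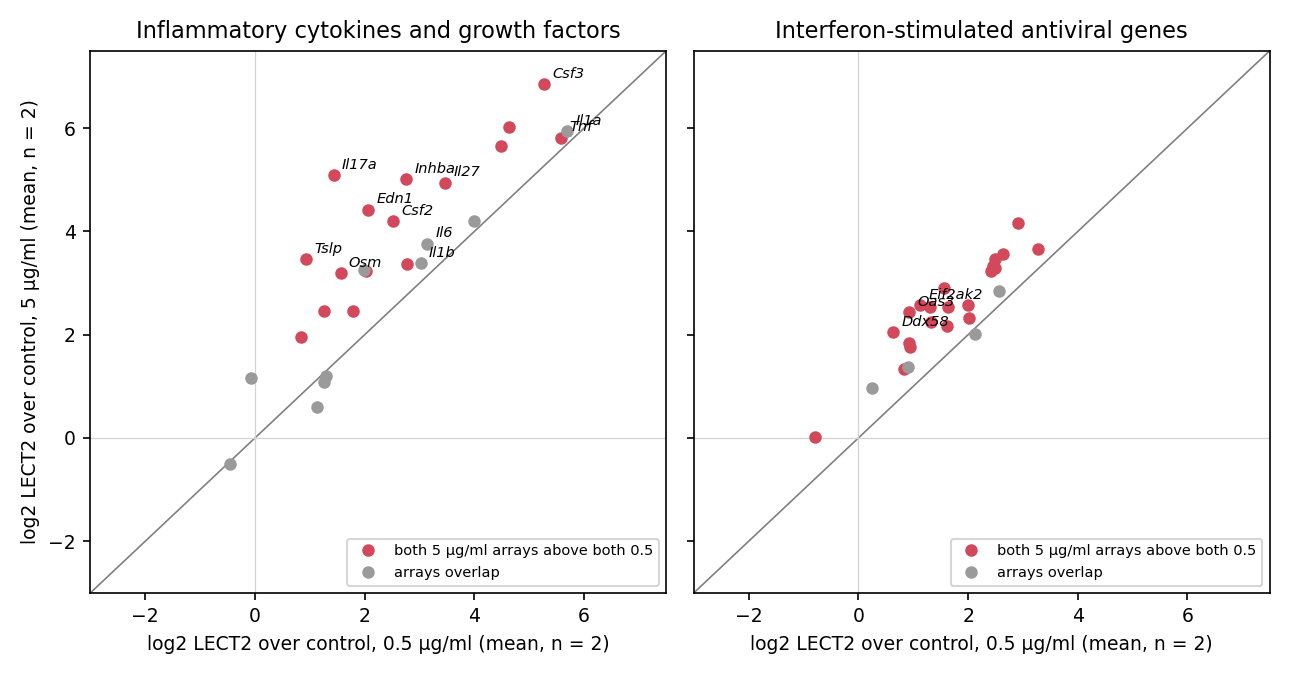
Mean log2 LECT2 over control at 0.5 µg/ml (x axis) against that at 5 µg/ml (y axis) for 26 cytokine and growth factor genes (left) and 25 antiviral genes (right), each point a gene and each value a mean of 2 arrays, with the grey diagonal marking equal effects. Red points, 16 at the left and 21 at the right, have both high-dose arrays above both low-dose arrays (all genes: 21.1%). Tnf, Il1a and Il1b lie near the diagonal and Il17a, Edn1 and Tslp well above it.

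Antiviral genes are switched on by type I interferon. Of 27 listed genes 25 were tested, and 24 of the 25 had a positive difference. In 21 both high-dose arrays exceeded both low-dose arrays, with 0 below (all genes: 21.1% and 19.4%). The median difference was 0.82, with 0.70 in replicate 1 and 0.95 in replicate 2. Of the 25, 12 had an unadjusted p under 0.05 (all genes: 7.83%), though none passed after adjustment. At the low dose 16 rose against control (all genes: 2.75%) and at the high dose 23 (all genes: 10.2%), and none fell. After median centring of the linked files, which moved the median of all genes to -0.14, the list's median was 0.47, and with the files as recorded -0.01. In the control channel alone the list was 0.19 higher on the high-dose arrays, with 18 of 25 members above 0, and in the LECT2 channel alone 1.23 higher.

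Within this family the widest gaps were in RNA sensors and antiviral enzymes. Oas3, which makes the messenger that activates RNase L, read 1.58 and 0.28 at the low dose and 2.50 and 2.37 at the high dose, a difference of 1.51 (SE 0.61). Eif2ak2, the double-stranded RNA kinase PKR, read 1.57 and 0.68 against 2.37 and 2.76, a difference of 1.44 (SE 0.47). Ddx58, the sensor RIG-I, read 0.56 and 0.70 against 2.36 and 1.75, a difference of 1.42 (SE 0.35). Usp18, which removes ISG15 and damps interferon signalling, read 1.43 and 1.70 against 2.92 and 2.91, a difference of 1.35 (SE 0.42), but its control channel was also 1.41 higher on the high-dose arrays. In all 4 both high-dose arrays lay above both low-dose arrays. For Ddx58 a second probe gave 0.59, and its control channel was 1.30 higher on the high-dose arrays. Trim30a, at -0.13, was the 1 gene of the 25 below 0. Of 20 tested members with a promoter entry 9 hold the interferon response element (45%), a known feature of this family.

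No member of the next 2 lists passed the test of the dose difference. Among 17 interferon regulatory factors and STATs the median difference was 0.53 (0.17 in replicate 1 and 0.81 in replicate 2). Of the 17, 10 did not overlap above and 2 below (all genes: 21.1% and 19.4%). Stat4 differed by 1.44 (SE 0.71), Irf7 by 1.27 (SE 0.74), Stat3 by 1.13 (SE 0.48) and Batf2 by 0.74 (SE 0.46). The interferon-induced GTPases and Schlafen genes had a median of 0.50 over 22 genes, but 1.04 in replicate 1 and -0.07 in replicate 2, so the experiments disagreed. Of this group Tgtp1 read 2.69 and 2.50 at the low dose and 5.06 and 3.50 at the high dose (difference 1.69, SE 0.50), and Slfn1 differed by 1.35 (SE 0.56). Slfn3 gave 1.23 (SE 0.72), and Slfn4 gave 1.25 with the repeated value in its low dose and 1.77 with that value as missing.

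Several brakes of inflammation read higher at the high dose. Of 16 anti-inflammatory cytokines, decoy receptors and SOCS genes tested 15 had a positive difference. Of the 16, 10 did not overlap above and 1 below (all genes: 21.1% and 19.4%). The median was 0.56, with 0.59 and 0.49 in the replicates. It was 0.18 after median centring of linked files and -0.10 with files as recorded. Apart from Il19 and Il10, Il1rn, which encodes the natural antagonist of the interleukin 1 receptor, read 1.33 and 1.46 at the low dose and 4.17 and 2.54 at the high dose, a difference of 1.96 (SE 0.67). Zfp36, which shortens the life of cytokine messages, read -0.51 and 0.18 against 1.19 and 0.88, a difference of 1.20 (SE 0.40). Both stood apart between doses on all 4 arrays.

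NF-kB inhibitors and feedback genes were induced broadly. All 26 tested members rose at the high dose (all genes: 10.2%) and 18 at the low dose (all genes: 2.75%). The median difference was 0.30, with 12 not overlapping above and 0 below (all genes: 21.1% and 19.4%). Ier3 had the largest at 1.68 (SE 0.72), followed by Tnip3 at 1.33 (SE 0.63; -0.05 for a much dimmer probe), Bcl3 at 0.90 (SE 0.44) and Gadd45b at 0.73 (SE 0.30). Immediate early genes had a median of 0.42 with 13 of 23 not overlapping above and 2 below (all genes: 21.1% and 19.4%). Junb read 0.95 and 0.99 against 2.75 and 1.85 (difference 1.33, SE 0.43), Ier2 0.08 and 0.74 against 2.12 and 1.19 (1.25, SE 0.41) and Nr4a1 -0.91 and 0.09 against 0.41 and 1.21 (1.22, SE 0.43). Egr2 went the other way, with -2.63 and -1.14 at the low dose and -3.53 and -2.68 at the high dose (-1.22, SE 0.55), and it fell against control at both doses.

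Chemokine genes had small median differences. Over 13 CC chemokines the median difference was 0.23 and over 12 CXC chemokines 0.30. In these lists 5 and 2 members did not overlap above and 1 and 1 below (all genes: 21.1% and 19.4%). Ccl25 (0.97, SE 0.49, but -1.38 for a dimmer probe), Ccl7 (0.82, SE 0.95), Ccl17 (0.78, SE 0.34) and Ccl4 (0.52, SE 0.53) had the largest CC differences. Cxcl13, the B cell attractant, stood out on the low side with 2.40 and 1.66 at the low dose and 0.24 and -0.51 at the high dose. Its difference was -2.16 with an SE of 0.80, and -2.19 in the linked files after loess. Cxcl5 (1.08, SE 0.96), Cxcl10 (0.55, SE 0.67) and Cxcl12 (0.54, SE 0.42) were the next largest, and their intervals span 0. A much dimmer Cxcl12 probe gave 0.01.

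Among effector genes, Nos2, the inducible nitric oxide synthase, read 1.10 and 0.16 at the low dose and 2.22 and 1.74 at the high dose, a difference of 1.35 (SE 0.40). It rose against control at the high dose. Arg1, which competes with it for arginine, read -0.39 and -3.54 against -0.43 and -2.75, so the 2 experiments disagreed by more than 2 log2 units at both doses and the difference of 0.38 had an SE of 1.60. Arg2 (1.18, SE 0.63), Cd274 (1.14, SE 0.48) and Odc1 (0.93, SE 0.54; other probes 0.50 and -0.05) had positive differences, and the list's median was 0.40 over 11 genes. Mmp3, the protease stromelysin 1, read 1.16 and -0.09 against 4.39 and 3.54, a difference of 3.43 (SE 0.90); its control signal was not well above background on either low-dose array. The matrix protease list had a median of 0.62 over 21 genes, but only 4 did not overlap above (19.0%) and 2 below (9.5%). The shares over all genes were 21.1% and 19.4%. Slamf1, an adhesion receptor of immune cells, differed by 1.78 (SE 0.56), with a control signal not well above background on either low-dose array and on 1 of the high-dose arrays. Cd200, the ligand of an inhibitory receptor, differed by 1.52 (SE 0.46). Havcr2, which encodes TIM-3, was not well above background in the LECT2 channel of either high-dose array, and that signal was at least 1.29-fold lower there.

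**Figure D3:**
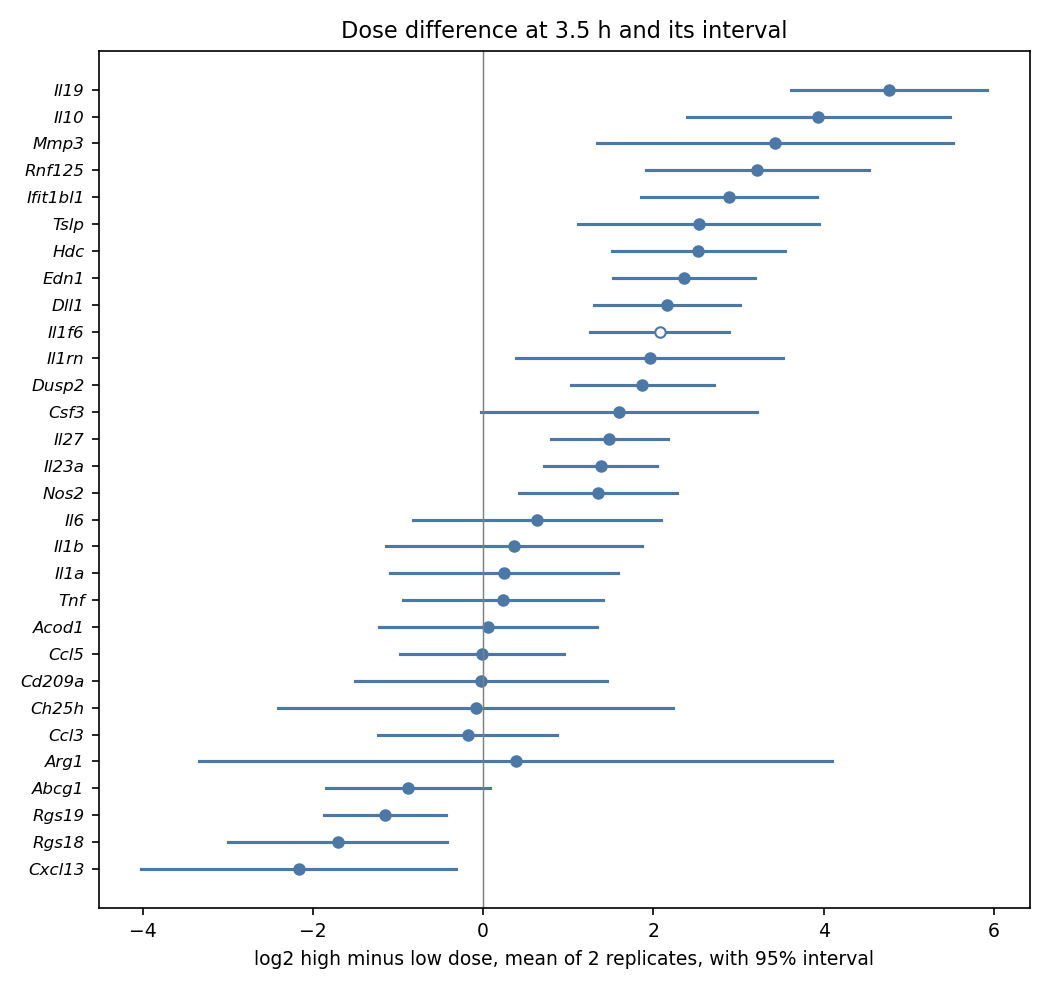
High minus low dose (log2, x axis) for 30 genes (y axis), as the mean of 2 replicates with its 95% interval from limma. The intervals of Il19 (3.62 to 5.92) and Il10 (2.39 to 5.49) lie above 0 and those of Tnf (-0.95 to 1.41) and Il6 (-0.83 to 2.09) span it, and no gene passes after adjustment over all 26148 genes; the open point of Il1f6 uses the repeated value.

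The list of MAP kinase phosphatases and RGS proteins, which shorten G protein signalling, had a median of 0.29 over 18 genes, with 5 not overlapping above and 4 below (all genes: 21.1% and 19.4%). Its 4 largest differences were those of Dusp2, Dusp5 (1.46, SE 0.82), Rgs18 and Rgs19. Rgs18 read -2.19 and -1.54 at the low dose and -3.11 and -4.04 at the high dose, where its LECT2 signal was not well above background on either array. That signal was at least 1.64-fold lower at the high dose. Rgs19 read -0.41 and -0.23 against -1.20 and -1.75, a difference of -1.15 (SE 0.31). Both fell against control at the high dose, and Rgs18 also at the low dose.

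Most genes at the negative end of the dose difference had LECT2 signals near background. Its 12 largest statistics were Ado, Gca, Klra8, Pfkfb1, Cep68, Hltf, Gm5935, Zfp69, Ndrg3, Naip1, Rbak and Utp14a, with differences between -3.27 and -1.44. Ado, a thiol dioxygenase, read -1.57 and -0.62 at the low dose and -3.91 and -3.82 at the high dose (-2.77, SE 0.37), but a second probe gave -0.57. Gca, the calcium-binding protein grancalcin, carried the repeated value in the low dose, and its LECT2 signal was above background on 1 array of each dose. Pfkfb1, Cep68 and Zfp69 were not well above background in the LECT2 channel of either high-dose array, and their LECT2 signals were at least 1.48-, 1.48- and 1.72-fold lower there. Probes disagreed for Klra8, where others gave 0.18 and -1.81, and for Naip1, where another gave 0.11. Second, dimmer probes gave smaller differences for Cep68 (-0.75) and Utp14a (-0.56). In the linked files after loess the differences were smaller for all 12, from -1.83 for Ado to -0.67 for Naip1. Gm5935 alone had LECT2 signal above background on all 4 arrays, and its control channel was 1.32 higher on the high-dose arrays while its LECT2 channel was 0.20 higher.

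Ribosomal and respiratory chain genes had lower values at the high dose in replicate 1. Cytosolic ribosomal protein genes had a median of -0.42 over 34 genes, with 0 positive and 14 not overlapping below (all genes: 19.4%). Replicate 1, however, gave -0.95 and replicate 2 -0.01. Rpl19 (-0.95, SE 0.34), Rpl13 (-0.82), Rps19 (-0.81) and Rps6 (-0.79) had the largest. Nuclear genes of the respiratory chain gave -0.35 over 25 genes, with -0.56 and -0.09 in the replicates. Of the 25, 12 did not overlap below (all genes: 19.4%), and Ndufa1 (-0.90) and Ndufb5 (-0.74) led. A dimmer Ndufb5 probe gave -0.23. In replicate 2 both medians lay near 0. Genes of cholesterol efflux and oxysterol handling gave -0.31 over 16 genes, with -0.21 and -0.55 in the replicates and 4 not overlapping below, which is near the 19.4% of all genes. Nceh1, which frees stored cholesterol, read -1.41 and -1.44 at the low dose and -2.65 and -2.04 at the high dose (-0.92, SE 0.33), and Abcg1, a cholesterol exporter, differed by -0.88 (SE 0.41). Both fell against control at both doses. Sqle, an enzyme of cholesterol synthesis, differed by -0.97 (SE 0.28).

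**Figure D4:**
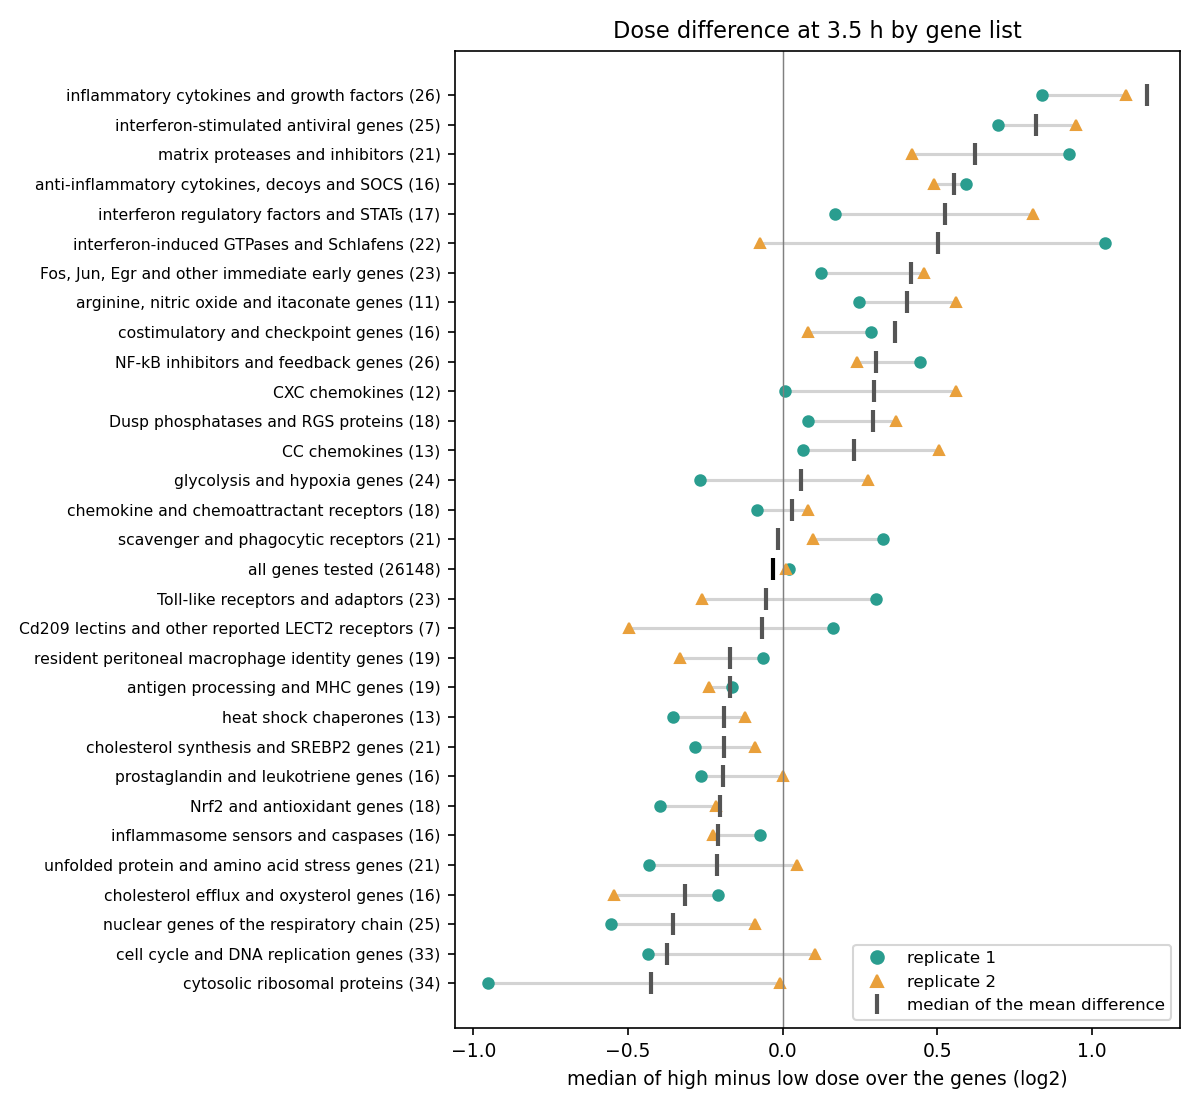
Median over each gene list other than the markers of other cell types (y axis, number of genes tested in brackets) of high minus low dose on the log2 scale (x axis), with circles for replicate 1, triangles for replicate 2 and a bar for the median of the mean difference. Inflammatory cytokines (1.18) and antiviral genes (0.82) lie highest with both replicates above 0, ribosomal proteins (-0.42) lie lowest of the lists drawn with the replicates at -0.95 and -0.01, and all genes tested lie at -0.03.

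Of the reported LECT2 receptors, Cd209a read -2.42 and -0.79 at the low dose and -1.73 and -1.54 at the high dose, a difference of -0.03 (interval -1.51 to 1.45), and it fell against control at the high dose. A second, dimmer Cd209a probe gave a difference of 0.45. Met read 0.88 and 1.46 against 3.30 and 2.38, a difference of 1.67 (SE 0.39), and rose against control at the high dose. Of 20 genes that mark resident peritoneal macrophages 19 were tested, 18 of them with LECT2 signal above background on all 4 early arrays, Adgre1 and Gata6 among these. Their median difference was -0.17, and Vsig4 (-1.18), Tgfb2 (1.13), Timd4 (-1.05) and Lyz2 (-0.97) had the largest. A dimmer Tgfb2 probe gave 0.28. Markers of other cells had medians of -0.21 for B cells (12 genes tested), 0.06 for neutrophils (10), 0.29 for dendritic cells (13), 0.12 for mast cells and eosinophils (11) and 0.11 for mesothelial cells and fibroblasts (16). Red blood cell markers gave -0.61 over 5 genes. Hdc, also a mast cell marker, was the 1 member of that list with a difference over 1, and Cpa3, Cma1 and Tpsb2 differed by -0.39, -0.63 and 0.28. In such bulk samples fewer cells of a type and less RNA per cell cannot be told apart.

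The differences in replicate 1 and replicate 2 were 5.61 and 3.93 for Il19, 4.87 and 3.01 for Il10, 2.45 and 2.26 for Edn1 and 3.41 and 2.37 for Ifit1bl1. Those genes were picked for a large and even difference, so this describes them and tests nothing. The numbers of genes positive or negative in both experiments were 7427 (28.4%) and 6911 (26.4%).

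**Figure D5:**
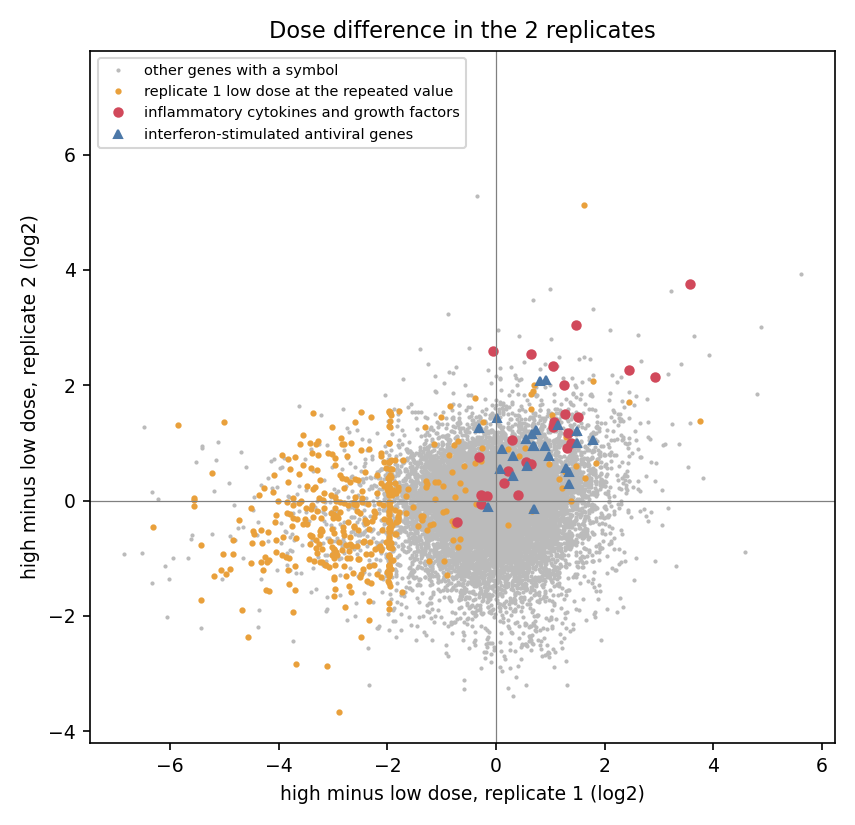
High minus low dose in replicate 1 (x axis, log2) against replicate 2 (y axis, log2), each point a gene with a symbol, with cytokines and growth factors in red and antiviral genes in blue. The cloud has no clear slope (r = 0.119 over all genes tested), most of both lists lies to the upper right of the origin, and the orange genes with the repeated value in replicate 1 of the low dose lie mainly at the left.

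Set against 48 h, no gene passed the test of whether the early dose difference differed from the late one (0 of 26148, smallest limma adjusted p 0.261, 2541 genes or 9.72% at an unadjusted p under 0.05). Leaving out replicate 2 of the early low dose gave 96 calls. The smallest adjusted p was that of Il19, with a dose difference of -2.41 at 48 h and 4.77 early. Il17a differed by 7.16 at 48 h and 3.66 at 3.5 h, and for Tnf the values were -0.38 and 0.23. The dose difference at 48 h itself passed for 0 genes, with 2738 (10.5%) at an unadjusted p under 0.05.

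Each channel was also taken alone. In the LECT2 channel 0 genes passed for high against low dose (smallest limma adjusted p 0.367, 1885 genes or 7.21% at an unadjusted p under 0.05). In the control channel, where both sets of arrays carried untreated cells, 0 passed as well (270 genes or 1.03%), with a median absolute difference of 0.18 against 0.24 in the LECT2 channel. Without replicate 2 of the low dose the control channel gave 893 calls. Among the leading genes the LECT2 and control channels differed by 2.91 and -0.21 for Il19, 2.86 and 0.06 for Il10, 2.90 and 0.55 for Edn1 and 2.18 and -0.22 for Ifit1bl1. In these 4 genes the LECT2 channel held the larger part of the difference.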

How the data were processed

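The data are 8 2-colour Agilent arrays, 2 per group of LECT2 dose and time. Per the submitters' processing notes the slides were read with Agilent Feature Extraction 10.7.3.1. Per the file headers the scanner files hold the intensity of each channel (Cy5 and Cy3) and its background, and log10 ratios. The deposited log2 values, Cy5 over Cy3 as the comparison with the scanner files showed, were used with the sign turned, so that positive is LECT2 over control; how they were normalised and centred is not given in the sources used here. The columns of the 48 h arrays equal a file's ratio within 0.01 at over 99% of bright probes, and those of 3.5 h do not, so the 2 times may have been made differently. Files were linked to columns by their highest correlation, which for 7 of 8 columns is a file recorded under another sample. By that link all 3.5 h arrays lie on 1 slide; by the record each slide holds 1 replicate of every group.

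Of 44397 spots 43020 were not controls. Probes (39428) were named through accessions in RefSeq's genes of GRCm38.p6, 26411 of them. A probe stayed in (31615 did) when 2 or more of the 8 arrays had it well above background in a channel, and the brightest probe of each gene was used, leaving 26148 genes, 16754 with a symbol. limma 3.58.1 in R 4.3.3, with version 1.17.8 of data.table, fitted 1 mean per group over all 8 arrays. It had 4 residual and 3.62 prior degrees of freedom and Benjamini-Hochberg adjustment at 0.05. A call needed the same sign in both replicates. Where an early array was left out, the sign rule of its comparisons could use only the other replicate number. Those counts therefore met a looser rule than the main fit. Precision is limited by how few arrays there are. The fit was tested on simulated data with 50 changed genes at each size of difference. It recovered 2 of 50 at a log2 difference of 1.5, 2 at 2, 36 at 3 and 41 at 4. For bounds, channels were taken after normexp (offset 50), loess and Aquantile scaling.

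The members and lists were chosen with earlier results of these data known. The text names the 12 largest moderated statistics in each direction, up to 4 members of each list with the largest difference, and Cd209a, Tnf, Il1b, Il6, Il10, Il12b, Csf3, Nos2 and Arg1; other genes, such as Il23a, Il1f9, Htra4, Trim30a and Il1a, were added after their values were seen. No gene was called, so motif shares among called genes have no value. RefSeq promoters were searched for 13308 of 16754 named genes, with the first listed start where a gene has several. The replicate numbers mark experiments with different mice; deviations of same-numbered arrays from their group means correlated at r = 0.04 between the 2 early doses and at r = -0.06 to 0.47 between the other groups, so the unpaired fit was kept. Alternatives were the replicate block, other filters, variance models, centring, probe rules and sources of values, each array left out, and, chosen after seeing the data, the repeated value taken as missing.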

Additional observations from a re-analysis of the deposited data

Results flagged for a closer look

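All gene lists, markers included, were screened for median dose differences of opposite sign at 3.5 h and 48 h in both replicates. Most lists did not have them, and those that did are given here. The difference was not tested for the lists, nor was how many would be flagged by chance. Several of the early medians lie near 0. The median of 3.5 h minus 48 h was 1.07 for CC chemokines, with 0.07 and 0.51 early and -0.94 and -0.82 late. For Dusp phosphatases and RGS proteins it was 0.84, with 0.08 and 0.37 early and -0.64 and -0.52 late. Anti-inflammatory cytokines, decoys and SOCS genes gave 0.61 (0.59 and 0.49 early, -0.30 and -0.36 late), scavenger and phagocytic receptors 0.44 (0.32 and 0.10 early, -0.11 and -0.34 late) and immediate early genes 0.36 (0.12 and 0.46 early, -0.46 and -0.34 late). Inflammasome sensors and caspases gave -0.42 (-0.07 and -0.22 early, 0.27 and 0.09 late), and nuclear genes of the respiratory chain -0.36 (-0.56 and -0.09 early, 0.15 and 0.08 late).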

How the results depend on the processing

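The count of 0 genes for the dose difference at 3.5 h held in 14 alternatives, among them the replicate block (0 calls, smallest limma adjusted p 0.323) and the repeated value as missing, which was chosen after seeing the data. It became 436 without replicate 2 of the low dose, 8 with linked files and loess and 3 with linked files and median centring; replicates left out in turn gave 0 to 436. Why was not tested, beyond the repeated value at 217 of the 436. The low-dose count of 1279 became 733 without a filter, 753 with trended robust variance, 2372 with linked files and loess, 3269 with median centring (764 up, 2505 down) and 0 with recorded files (951 at an unadjusted p under 0.05), and ranged from 117 to 1372 over arrays left out. The high-dose count of 5724 became 11712 with median centring (2901 up, 8811 down) and 0 with recorded files (2883 at an unadjusted p under 0.05), and ranged from 901 to 5583. The comparison with 48 h became 1 (Il19) with processed signals and ranged from 0 to 96, and the control channel from 0 to 893. List medians: inflammatory cytokines 0.94 with median centring and -0.088 with recorded files, ranging from 0.60 to 1.19 over arrays left out and 0.84 without replicate 2 in every group; antiviral genes 0.47 and -0.0052; anti-inflammatory genes 0.18 and -0.10, ranging from 0.48 to 0.79; ribosomal proteins kept a negative median in all 12 alternatives. The replicate block changed no other call of the dose difference. Leaving out a replicate number in every group leaves 1 array per group and no residual degrees of freedom, so it gave values and no test. Low signal limits the negative end of the difference, where high-dose LECT2 signals were often not above background.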
